A study of Mus musculus with 17 samples.

Results

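The genes described here are 10 genes of mouse astrocytes, given as a list of names: Gfap, Vim, Serpina3n, S100b, Aldh1l1, Aqp4, Mlc1, Hepacam, Gja1 and Gjb6. They are 10 of 42687 genes in the deposited count table, each has 1 row there, and all 10 passed the filter on low counts with 18753 genes in all. RNA was sequenced from microvessels of the cerebral cortex of mice aged 10 to 11 months, which the labels describe as endothelium, pericytes and astrocyte endfeet. The mice were wild type (WT) or APP/PS1, a transgenic amyloid model of Alzheimer's disease that the sample labels shorten to APP, and every mouse was injected intraperitoneally with 10 mg/kg of a peptide at intervals of 2 days over 2 weeks. The peptide was gp91-ds-tat, which inhibits the superoxide-producing oxidase NOX2, or its control sgp91-ds-tat. The sample labels write NOX2 and SC, taken here as inhibitor and control peptide. There were 5 libraries of WT with control peptide, 5 of WT with inhibitor, 2 of APP/PS1 with control peptide and 5 of APP/PS1 with inhibitor. No group was left without a peptide, and tissue was taken from the ipsilateral cortex after a surgery that the labels do not describe further. The labels name neither the transgenic line nor the promoter of its transgenes, and they do not say that each library is a separate mouse, so the p-values measure the spread between these libraries.

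Astrocytes wrap the vessels of the brain with flattened processes called endfeet. The endfoot membrane carries the water channel aquaporin-4, a complex of the membrane protein MLC1 with the adhesion molecule GlialCAM (encoded by Hepacam), and gap junctions made of connexin 43 and connexin 30. When astrocytes become reactive, as they do around amyloid plaques, they typically raise the intermediate filament protein GFAP, often with vimentin and the protease inhibitor encoded by Serpina3n. S100b, a calcium-binding protein, and Aldh1l1, a cytosolic folate enzyme, are commonly used as markers of astrocytes in general.

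Total counts per library were between 7316503 and 17862965, and a floor of 3 counts was 0.174 to 0.390 CPM (counts scaled to a TMM-adjusted library size). The labels of genotype were checked on App, which was at 1262 to 2230 CPM in WT and 1897 to 3334 CPM in APP/PS1 (log2 difference 0.73, adjusted p = 0.00631, edgeR). Astrocyte RNA was present in every library: none of the 10 genes and none of 17 further astrocyte identity genes was at 0 in any, and the identity genes summed to 4098 to 6342 CPM. Other cells were present as well, with summed marker levels of 2928 to 5379 CPM for 10 endothelial genes and 3120 to 5024 CPM for 10 neuronal genes. Choroid plexus RNA varied far more between libraries. Its 6 marker genes summed to 29.7 to 8119 CPM in WT with control peptide and 234 to 4698 CPM in WT with inhibitor. In APP/PS1 the sums were 197 and 1919 CPM with control peptide and 452 to 4737 CPM with inhibitor. The part of choroid plexus in the results was not tested. The genes Gm26917 and Gm42418 together held 4.76% to 15.99% of the counts of a library. Xist, a transcript of the inactive X chromosome, was at 5614 to 10174 CPM in 10 libraries and at 13.5 to 668 CPM in 7. Each set has libraries of all 4 groups. Ddx3y, a gene of the Y chromosome, was at 0 to 5.39 CPM in the 10 libraries of high Xist. In the 7 of low Xist it was at 47.7 to 57.8 CPM. The labels give no sex. These are bulk samples, in which fewer astrocyte endfeet and less RNA per endfoot cannot be told apart.

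Levels were compared between genes per kilobase of exon, as the median over 17 libraries. Vim was the highest at 37.2 CPM per kb, followed by Hepacam at 23.2, Gja1 at 19.9, Gfap at 18.5, Aqp4 at 14.8, Gjb6 at 14.3, Mlc1 at 12.2, Serpina3n at 8.34, S100b at 7.62 and Aldh1l1 at 4.89. The order was not equally firm throughout. Vim was above Hepacam in 15 of 17 libraries, whereas the place of Gfap depended on genotype. Gja1 was above Gfap in 9 of 10 WT libraries and in 0 of 7 APP/PS1 libraries, and Gfap was above Aqp4 in 3 of 10 WT libraries and in 7 of 7 APP/PS1 libraries. The length-scaled level of Gfap was 13.1 ± 3.34 CPM per kb in WT (SD, n = 10) and 30.5 ± 5.996 in APP/PS1 (SD, n = 7). In the plot of length-scaled levels, this is visible as the gap between the blue and the red or orange points of Gfap.

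**Figure D1:**
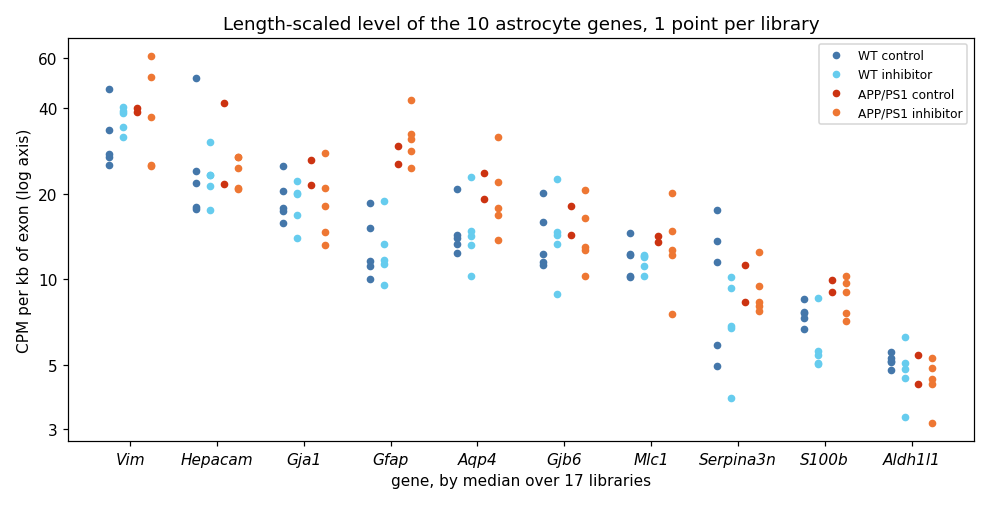
Level of each gene in CPM per kilobase of exon on a log axis, with 1 point per library coloured by group; genes are ordered by their median over 17 libraries. Vim is the highest with a median of 37.2 and Aldh1l1 the lowest with 4.89, and Gfap is the gene whose APP/PS1 points all lie above its WT points.

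Gfap was the one gene of the 10 that was higher in APP/PS1 than in WT past the threshold. With control peptide, the 5 WT libraries held 42.4, 46.9, 48.8, 63.7 and 78.1 CPM of Gfap, and the 2 APP/PS1 libraries held 124 and 108 CPM. With inhibitor, the 5 WT libraries held 40.3, 79.7, 49.2, 56.0 and 47.7 CPM, and the 5 APP/PS1 libraries held 119, 136, 104, 131 and 179.5 CPM. All 7 APP/PS1 libraries were above the highest WT library, with either peptide. The mean was 55.3 ± 14.1 CPM in WT (SD, n = 10) and 129 ± 25.3 CPM in APP/PS1 (SD, n = 7). Over both peptides the log2 difference was 1.20 ± 0.15 (SE; 95% interval 0.90 to 1.51), a 2.30-fold higher level, with an adjusted p of 0.000125 by edgeR's quasi-likelihood test. In that comparison 110 of 18753 genes, 0.587%, passed the threshold of 0.05, of which Gfap was the 13th by p-value, and 0.272% of all genes had genotypes that did not overlap.

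The Gfap difference had the same direction under each peptide. With inhibitor it was 1.29 ± 0.19 (SE; 95% interval 0.90 to 1.69), with an adjusted p of 0.00311 in edgeR, and 0.181% of all genes passed. With control peptide, where APP/PS1 has 2 libraries, it was 1.05 ± 0.24 (95% interval 0.55 to 1.54) and did not pass, with an adjusted p of 0.152 in edgeR. In edgeR 0.0533% of all genes, 10 in number, passed with control peptide. DESeq2 gave Gfap a difference of 1.03 and an adjusted p of 0.0308 there, and called 45 genes in all. The genotypes did not overlap for Gfap and S100b with control peptide, as for 7.53% of all genes, and for Gfap with inhibitor, as for 0.784% of all genes. At an unadjusted p under 0.05, Gfap was the 1 gene of the 10 with control peptide, against 3.97% of all genes, and Gfap and S100b were the 2 with inhibitor, against 3.38%.

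Other cells moved with genotype beside Gfap. Over both peptides, 7 of 8 microglia markers were higher in APP/PS1 past the threshold (C1qa, C1qb, C1qc, Csf1r and Cx3cr1 among them), and none was at 0 in any library. With control peptide and with inhibitor taken separately, 0 of the 8 passed, and 8 of 8 had a log2 difference above 0 in each. Their sum was 236 to 314 CPM in WT with control peptide, 238 to 320 CPM in WT with inhibitor, 413 to 506 CPM in APP/PS1 with control peptide and 290 to 550 CPM in APP/PS1 with inhibitor. With the mean level of these markers in the model, the Gfap difference was 1.10 ± 0.25 (SE) and its adjusted p in edgeR was 0.0803. The same model left 11 genes past the threshold in the whole table, and the part of microglia in the Gfap result was not tested. Where Xist was high, Gfap ranged from 40.3 to 63.7 CPM in the WT group of 5 and from 108 to 179.5 CPM in the APP/PS1 group of 5. Where Xist was low, it ranged from 46.9 to 79.7 CPM in the WT group of 5 and from 104 to 124 CPM in the APP/PS1 group of 2. That the genotypes overlap in neither set follows from their separation over all 17 libraries and is no separate result.

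The level of Gfap was also set against that of 17 astrocyte identity genes in the same library (Slc1a2, Slc1a3, Aldoc, Glul, Sox9 and others), a comparison chosen after the values were seen. On the log2 CPM scale, Gfap minus the mean of these genes was -0.49 ± 0.36 in WT (SD, n = 10) and 0.64 ± 0.20 in APP/PS1 (SD, n = 7). The shift between genotypes was 1.12, against 0.11 for the identity genes themselves. The shift was 1.07 to 1.19 with each library left out in turn, and no test is given because Gfap was already known to separate the genotypes. The ratio of Gfap to Gjb6 CPM was 0.792 to 2.37 in WT and 2.56 to 4.31 in APP/PS1, and the ratios to Mlc1 and S100b likewise did not overlap. The ratios of Gfap to the other 6 genes did overlap between the genotypes. Because Gfap alone separated the genotypes, these ratios are no separate result. Ratios to single genes outside the 10 were not taken.

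**Figure D2:**
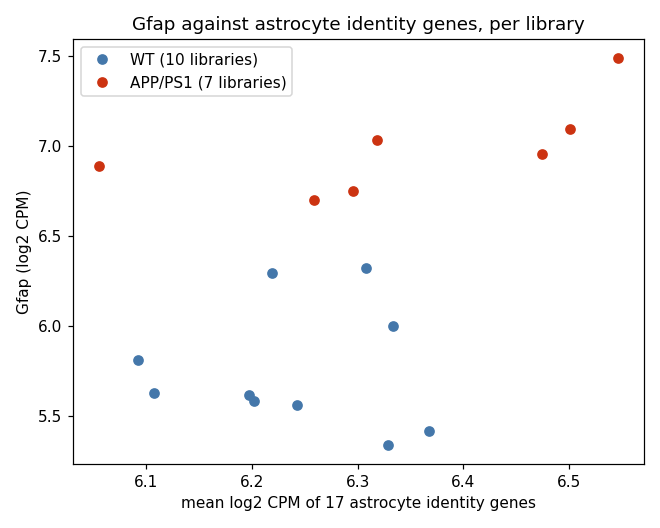
Gfap in log2 CPM (y axis) against the mean log2 CPM of 17 astrocyte identity genes (x axis), with 1 point per library. The 7 APP/PS1 libraries lie above all 10 WT libraries on the y axis, while their ranges overlap on the x axis.

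Gfap lies at chr11:102887336-102900912 on the minus strand in GRCm38 (GENCODE vM21), and Vim and Serpina3n, the other genes of the reactive state, at chr2:13573927-13582826 and chr12:104406729-104414329 on the plus strand. Their promoters from RefSeq are printed below, and a link between these sequences and the levels was not tested. Each runs from 250 bases before to 10 bases after the RefSeq transcription start, in GRCm38.p6. The Gfap start of RefSeq lies inside the longer gene model of GENCODE. Capitals mark matches, on either strand, to a STAT motif (TTCNNNGAA), an AP-1 motif (TGANTCA), the NFI motif TTGGC or a TATA box (TATAAA).
Gfap, chr11:102897191-102897450, minus strand: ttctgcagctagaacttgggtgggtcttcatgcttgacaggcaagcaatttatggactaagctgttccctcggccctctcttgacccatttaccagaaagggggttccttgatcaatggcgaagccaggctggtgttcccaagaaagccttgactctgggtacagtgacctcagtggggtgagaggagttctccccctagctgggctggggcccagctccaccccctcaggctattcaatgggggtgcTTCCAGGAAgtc
Vim, chr2:13574061-13574320, plus strand: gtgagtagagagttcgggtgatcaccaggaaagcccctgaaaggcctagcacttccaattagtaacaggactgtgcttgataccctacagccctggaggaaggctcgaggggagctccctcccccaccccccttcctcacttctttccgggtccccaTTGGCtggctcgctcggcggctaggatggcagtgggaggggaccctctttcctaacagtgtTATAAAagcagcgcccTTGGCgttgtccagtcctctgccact
Serpina3n, chr12:104406458-104406717, plus strand: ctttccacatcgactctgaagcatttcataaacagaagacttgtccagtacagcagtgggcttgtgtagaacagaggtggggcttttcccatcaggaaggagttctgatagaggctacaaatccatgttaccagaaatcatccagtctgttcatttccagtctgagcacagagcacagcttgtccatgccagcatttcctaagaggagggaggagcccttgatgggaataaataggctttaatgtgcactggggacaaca
The Gfap window holds 1 STAT match, from 2 bases before the start to 7 bases after it. The Vim window holds 2 NFI matches and a TATA box that begins 32 bases before the start. The Serpina3n window holds none of the 4 motifs. Windows of this length hold the STAT motif in 7.33% of 32851 RefSeq promoters, the AP-1 motif in 7.03%, the NFI motif in 42.6% and the TATA box in 12.7%. A RefSeq promoter was at hand for 9 of the 10 genes, a count made before Aqp4 was left out of the search. The number of genes searched may therefore be below 9. Among the genes searched, the STAT match was found in Gfap alone and the AP-1 match in Gja1 alone. NFI matches were also found in S100b, Mlc1 and Hepacam. These matches describe letters and not bound sites.

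Vim encodes vimentin, the filament protein that assembles with GFAP in reactive astrocytes and is also made by endothelial and mural cells. Its level was 119.5 to 221 CPM in the 10 WT libraries, with a mean of 163 ± 32.3 CPM (SD, n = 10). In APP/PS1 it was 183 and 189 CPM with control peptide and 119.7, 242, 177, 119 and 288 CPM with inhibitor, so that 2 of 7 libraries were above all WT libraries and the lowest was below them. The log2 difference over both peptides was 0.19 ± 0.17 (SE; 95% interval -0.16 to 0.53; adjusted p = 0.950, edgeR), and it did not pass the threshold. Of the partner filament genes, Nes, which encodes nestin, had the smallest p-value, with a log2 difference of 0.43 and an adjusted p of 0.815 in edgeR, and 0 of the 3 tested passed.

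Serpina3n encodes a secreted serine protease inhibitor that marks reactive astrocytes in many injuries. Relative to its mean it was the most variable of the 10 genes within WT. With control peptide it was at 36.1, 23.8, 12.2, 10.3 and 28.1 CPM in WT and 23.1 and 17.2 CPM in APP/PS1. With inhibitor it was at 14.1, 21.0, 19.3, 7.93 and 13.99 CPM in WT and 15.98, 16.7, 17.2, 19.5 and 25.7 CPM in APP/PS1. The APP/PS1 libraries all lay inside the WT range, and the means were 18.7 ± 8.79 CPM in WT (SD, n = 10) and 19.3 ± 3.71 CPM in APP/PS1 (SD, n = 7). The log2 difference was 0.14 ± 0.23 (SE; 95% interval -0.35 to 0.63; adjusted p = 0.992, edgeR). The upper bound of this interval lies below the lower bound of that of Gfap. Serpina3n has close copies in a cluster, and how reads that match several copies were counted is not given in the sources used here, so its counts are uncertain to that extent. Summed over 10 of these copies the level was 0.416 to 14.3 CPM, with 2 of them tested and 0 past the threshold.

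S100b was the gene nearest to the threshold after Gfap. In WT it was at 9.95, 10.9, 11.3, 12.7 and 11.4 CPM with control peptide and at 7.48, 12.8, 8.35, 7.54 and 8.08 CPM with inhibitor. In APP/PS1 it was at 14.7 and 13.4 CPM with control peptide and at 11.3, 15.3, 10.6, 13.4 and 14.4 CPM with inhibitor. All 7 APP/PS1 libraries were above the WT median and 5 were above the highest WT library. The log2 difference was 0.46 ± 0.12 (SE; 95% interval 0.22 to 0.71; unadjusted p = 0.000724), and its adjusted p in edgeR was 0.0954. S100b passed in DESeq2 with an adjusted p of 0.0298, where 182 genes in all passed. Without WT replicate 2 of the inhibitor group, it passed in edgeR with a log2 difference of 0.56 and an adjusted p of 0.0100. That library had the highest S100b of the 10 WT libraries. S100b did not pass in 7 of 8 alternatives or in 16 of 17 fits with a library left out. By peptide it was 0.33 ± 0.19 with control peptide and 0.55 ± 0.15 with inhibitor (SE), and neither passed. The raw counts of S100b per library were 58 to 243, fewer than those of Gfap at 431 to 2191. Dip2a lies on the opposite strand and overlaps the body of S100b but none of its exons.

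Aldh1l1 was the one gene of the 10 with a lower mean in APP/PS1, and its values lay close together in both genotypes. The level was 14.8 to 28.3 CPM in WT with a mean of 22.5 ± 3.46 CPM (SD, n = 10), and 14.2 to 24.5 CPM in APP/PS1 with a mean of 20.5 ± 3.46 CPM (SD, n = 7). The log2 difference was -0.11 ± 0.12 (SE; 95% interval -0.35 to 0.13; adjusted p = 0.973, edgeR). Exons of Aldh1l1 overlap the antisense gene Gm15756 over 499 bases and Gm45901 on the same strand over 105 bases. Gfap has the antisense gene Gm26668 across its body without shared exons. The library kit marks strand, but the strand setting of the counting is not given in the sources used here, so reads of these neighbours may not be separated.

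Aqp4 encodes the water channel that is concentrated at the endfoot membrane. In WT it was at 77.2, 86.7, 89.3, 129 and 82.6 CPM with control peptide and at 88.8, 142, 64.0, 82.3 and 92.2 CPM with inhibitor. In APP/PS1 it was at 147 and 119 CPM with control peptide and at 85.4, 136, 105, 111 and 197 CPM with inhibitor. Of the APP/PS1 libraries 6 of 7 were above the WT median, 2 were above the highest WT library, and the genotypes overlapped. The log2 difference was 0.46 ± 0.17 (SE; 95% interval 0.12 to 0.81), about as large as that of S100b but with a wider spread, and its adjusted p in edgeR was 0.487 (unadjusted p = 0.0109). By peptide the Aqp4 difference was 0.52 ± 0.28 with control peptide and 0.43 ± 0.22 with inhibitor (SE), and neither passed.

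Mlc1 and Hepacam, whose products form the adhesion and ion-handling complex of the endfoot, did not pass the test. Mlc1 was at 28.5 to 40.6 CPM in WT and 21.1 to 56.3 CPM in APP/PS1, with a log2 difference of 0.22 ± 0.14 (SE; 95% interval -0.07 to 0.50; adjusted p = 0.874, edgeR). Of the 10 WT libraries, 9 held 58.6 to 102 CPM of Hepacam and 1 held 169.5 CPM, and those of APP/PS1 held 69.7 to 139 CPM. Its log2 difference was 0.13 ± 0.19 (SE; 95% interval -0.27 to 0.53; adjusted p = 0.991, edgeR).

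The connexin genes Gja1 (connexin 43) and Gjb6 (connexin 30), which couple astrocytes to each other through gap junctions, did not pass the test either. Gja1 was at 143 to 257 CPM in WT, with a mean of 194 ± 33.3 CPM (SD, n = 10), and at 135 to 285 CPM in APP/PS1, with a mean of 209 ± 56.1 CPM (SD, n = 7). Its log2 difference was 0.13 ± 0.14 (SE; 95% interval -0.16 to 0.42; adjusted p = 0.9749, edgeR). Gjb6 was at 23.8 to 60.2 CPM in WT and 27.5 to 55.2 CPM in APP/PS1, the latter wholly inside the former, with a log2 difference of 0.06 ± 0.17 (SE; 95% interval -0.30 to 0.42; adjusted p = 0.997, edgeR). Intervals for both connexins end below the lower bound of the Gfap interval.

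**Figure D3:**
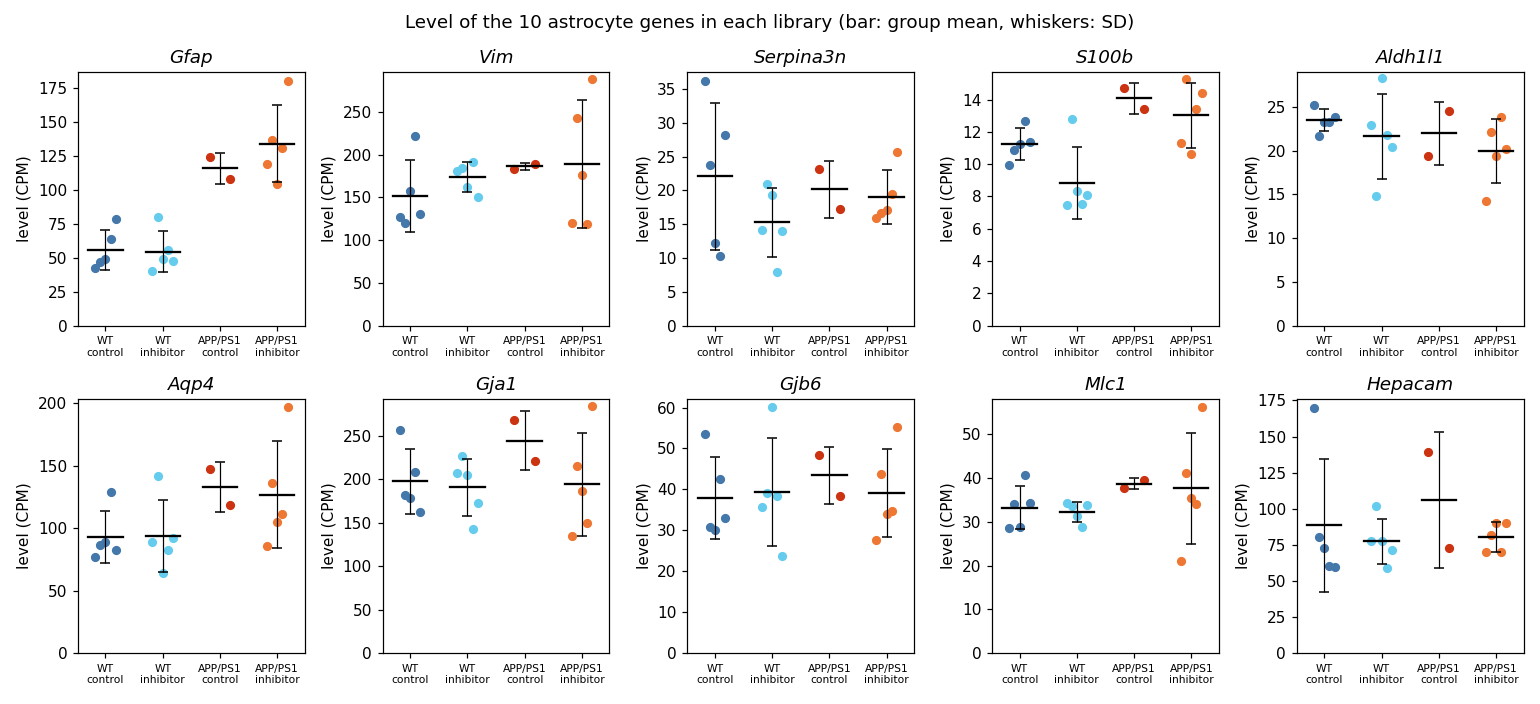
Level of each gene in CPM (y axis from 0) in the 4 groups, with 1 point per library, a bar at the group mean and whiskers of 1 SD. For Gfap the APP/PS1 libraries at 104 to 179.5 CPM lie above the WT libraries at 40.3 to 79.7 CPM, and for the other 9 genes the genotypes overlap.

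Over both peptides, 9 of the 10 genes had a log2 difference above 0, against 50.7% of all genes, and 3 (Gfap, S100b and Aqp4) had an unadjusted p under 0.05, against 6.38% of all genes. The median difference of the 10 genes was 0.16, and that of all genes tested was 0.00. The direction of these small differences depended on the covariate in the model. With the mean level of the astrocyte identity genes, Vim, Serpina3n, Gja1, Gjb6, Mlc1 and Hepacam were below 0. With that of the microglia markers the same 6 genes and Aqp4 were. With a library left out, Vim, Serpina3n, Aqp4, Gja1 and Mlc1 kept their direction in 17 of 17 fits, Hepacam in 16 and Gjb6 in 14. A single library, APP/PS1 replicate 5 with inhibitor, was the highest of 17 for Gfap, Vim, Aqp4, Gja1 and Mlc1. The same library had the highest sums of endothelial markers, 5379 CPM, identity genes, 6342 CPM, and microglia markers, 550 CPM. With each library left out in turn, this one included, the Gfap difference was 1.12 to 1.31.

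The inhibitor was compared with the control peptide within each genotype to ask whether NOX2 inhibition changed these genes. None of the 10 genes passed the threshold in WT, in APP/PS1 or over both genotypes. Gfap was at 56.0 ± 14.7 CPM with control peptide and 54.6 ± 15.1 CPM with inhibitor in WT (SD, n = 5 each), a log2 difference of -0.03 ± 0.19 (SE; 95% interval -0.43 to 0.36). In APP/PS1 it was at 116 ± 11.5 CPM with control peptide (SD, n = 2) and 134 ± 28.4 CPM with inhibitor (SD, n = 5), a log2 difference of 0.21 ± 0.25 (SE; 95% interval -0.31 to 0.73). The ranges overlapped in both genotypes. Over both genotypes the Gfap difference was 0.06 ± 0.15 (SE; 95% interval -0.25 to 0.37), so a change by inhibitor as large as that by genotype lies outside the interval.

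In WT, Serpina3n and S100b had the largest inhibitor differences of the 10 genes. For Serpina3n the difference was -0.53 ± 0.29 (SE; 95% interval -1.14 to 0.09), with a mean of 22.1 ± 10.9 CPM with control peptide and 15.3 ± 5.15 CPM with inhibitor (SD, n = 5 each). For S100b it was -0.33 ± 0.15 (SE; 95% interval -0.65 to -0.02; unadjusted p = 0.0399), with 4 of the 5 inhibitor libraries below all 5 control libraries and replicate 2 above them. Their adjusted p-values were 1.00 in edgeR. In APP/PS1 the lowest values were -0.40 ± 0.32 for Hepacam and -0.33 ± 0.23 for Gja1 (SE), both with an adjusted p of 1.00.

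The interaction asks whether the inhibitor difference is itself different in APP/PS1 and in WT, and no gene of the 10 passed it. The value, APP/PS1 minus WT, was 0.24 ± 0.31 for Gfap (SE; 95% interval -0.41 to 0.89), 0.44 ± 0.48 for Serpina3n and 0.22 ± 0.24 for S100b. For the other 7 genes it was below 0, the lowest being -0.28 ± 0.29 for Gja1 (SE), so no direction was shared by the 10 genes. In each inhibitor comparison and in the interaction, edgeR and DESeq2 called 0 of 18753 genes, which is 0% of all genes. At an unadjusted p under 0.05 edgeR gave 252 genes (1.34%) for inhibitor in WT, 338 (1.8%) in APP/PS1, 396 (2.11%) over both genotypes and 158 (0.843%) for the interaction. Of the 10 genes, S100b alone was among these, in WT and over both genotypes.

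**Figure D4:**
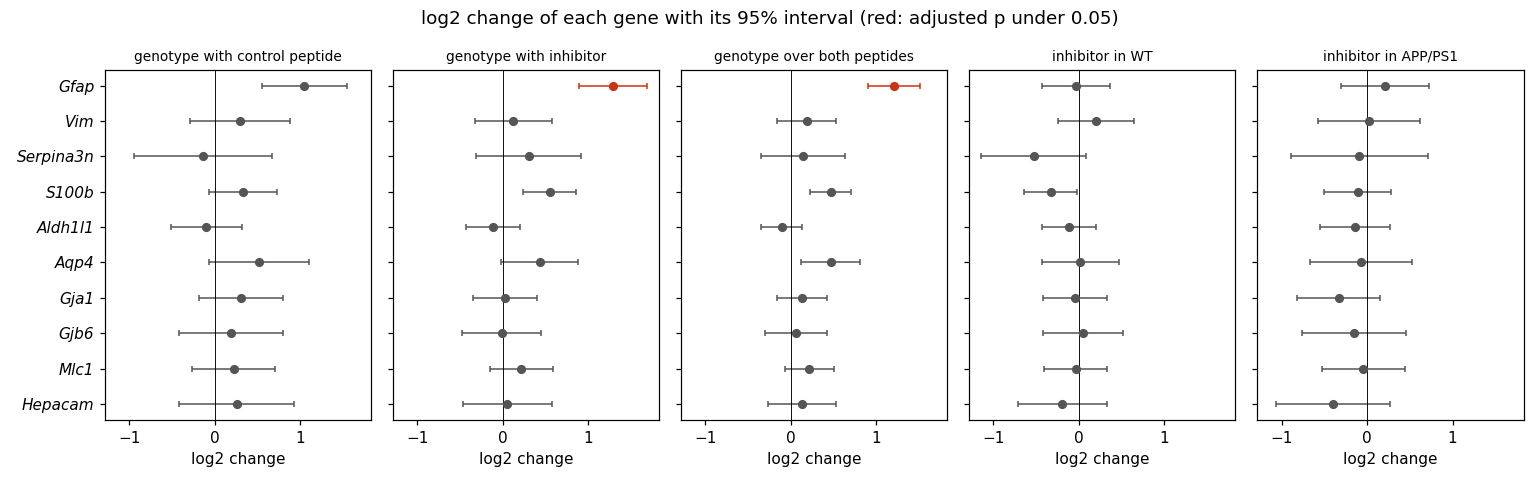
The log2 change of each gene (x axis) with its 95% interval, in 1 panel for each of 3 genotype and 2 inhibitor comparisons; red marks an adjusted p under 0.05. Gfap over both peptides at 1.20 and with inhibitor at 1.29 are the points in red, and intervals of Gfap in the inhibitor panels span 0.

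Other astrocyte genes were read in groups from the same fit. In the group of endfoot anchoring and transport genes (Kcnj10, Dag1, Dtna and others) 0 of 13 tested passed for genotype over both peptides, and the median log2 difference was 0.01. The smallest p-value was that of Clcn2, a chloride channel, at -0.17 with an adjusted p of 0.790 in edgeR. Of the 17 astrocyte identity genes 13 were above 0 with a median of 0.14, and 0 passed. Acsbg1, which encodes an acyl-CoA synthetase, was nearest at 0.32 ± 0.07 (SE) with an adjusted p of 0.0612 in edgeR.

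Among 11 genes listed for disease-associated astrocytes, 1 passed, C4b, which encodes complement component C4. C4b was at 68.7 ± 9.17 CPM in WT (SD, n = 10) and 154 ± 34.8 CPM in APP/PS1 (SD, n = 7), with a log2 difference of 1.14 ± 0.12 (SE) and an adjusted p of 2.19e-05 in edgeR. By peptide C4b differed by 1.22 with inhibitor, with an adjusted p of 0.000617 in edgeR, and by 0.99 with control peptide, where its adjusted p of 0.0830 in edgeR did not pass. The median of the 11 genes was 0.13. C4b and Gfap were the 2 astrocyte-list genes past the threshold for genotype over both peptides, and the microglia markers moved with C4b as well; their part in it was not tested.

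Of the reactive lists without these 2 genes none passed. The counts were 0 of 9 pan-reactive genes tested (median 0.01), 0 of 12 A1-type genes (median 0.19) and 0 of 9 A2-type genes tested (median 0.14). The pan-reactive list held 10 genes and the A2-type list 12, and the rest did not pass the filter on low counts. Gfap, Vim and Serpina3n were kept out of these lists. Lcn2, which encodes the iron-siderophore carrier lipocalin-2, had the smallest p-value of the pan-reactive list. It ranged from 0.625 to 113 CPM in WT and from 1.27 to 5.21 CPM in APP/PS1, with a log2 difference of -2.89 ± 0.80 (SE) and an adjusted p of 0.166 in edgeR. For the A1-type list it was Gbp2, an interferon-induced GTPase, at 0.31, and for the A2-type list Clcf1, a cytokine, at 0.38. In the STAT3 pathway, known for driving Gfap transcription, 0 of 9 genes passed and the median was 0.05, with Jak1 at 0.10. These are transcript levels, and the activity of the pathway was not measured. In the comparisons of inhibitor and the interaction 0 genes of these lists passed.

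The 10 genes were then compared with each other over the 17 libraries after the mean of each group was removed, as a description in which shared depth and tissue make-up also enter. Of 45 pairs 12 had a Pearson's r above 0.5 and 10 were below 0, with a median of 0.37. The same counts were not taken for pairs of other genes, so whether they are particular to the 10 is not known. In the group of 2 libraries, removing the mean leaves 2 values that mirror each other. Gfap and S100b were the closest pair at 0.77, followed by Aqp4 with S100b at 0.76, and by Aqp4 with Mlc1 and Vim with Mlc1, both at 0.74. The connexin pair Gja1 and Gjb6 was at 0.71. Within the reactive genes, Gfap with Vim was at 0.40, near the median, Gfap with Serpina3n at 0.14 and Vim with Serpina3n at -0.27. Mlc1 and Hepacam, whose proteins bind each other, were at -0.02.

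**Figure D5:**
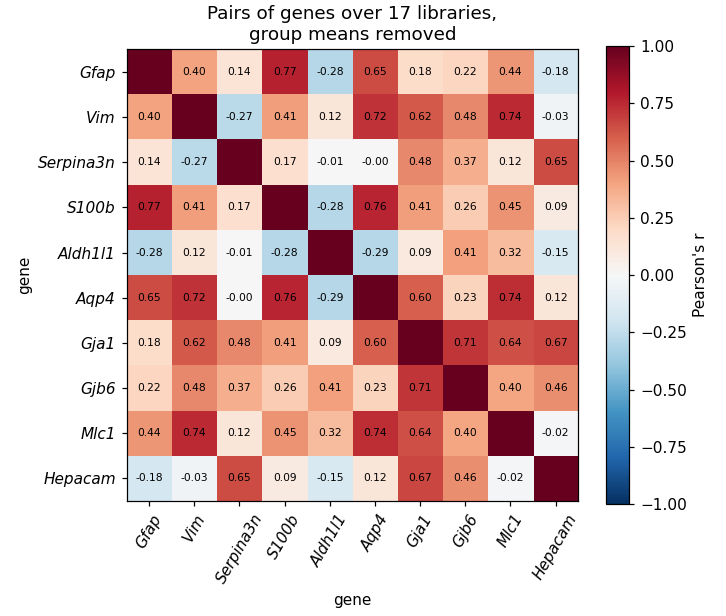
Pearson's r between each pair of the 10 genes over 17 libraries with the group means removed, with colour from -1 (blue) to 1 (red). Gfap and S100b form the highest pair at 0.77 and Aqp4 and Aldh1l1 the lowest at -0.29.

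Among all 18752 other genes tested, those most like Gfap by the same measure were Ppbp at 0.82, Dnah3 at 0.81 and Gimap9 at 0.78. Vim was nearest to Podxl at 0.96, Ephb4 at 0.95 and Lrrc32 at 0.95. Serpina3n was nearest to Pip4k2a at 0.89, Slit1 at 0.87 and Grin1 at 0.87, and Aqp4 to Tuba1a, Myoc and Itga6, each at 0.92. The 3 genes nearest to each of Gfap, Vim, Serpina3n and Aqp4 were in no case one of the other 9 genes. These nearest genes were picked as the highest of 18752 values over 17 libraries, and how high such values reach by chance was not tested.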

How the data were processed

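The data are RNA-seq of 17 cortical microvessel libraries. The deposited table holds the authors' raw counts for each Ensembl gene, whole numbers that are not normalized. Microvessels were collected by centrifugation in dextran, and libraries were made with a stranded kit after depletion of ribosomal RNA, per the labels' protocols. The submitters' processing notes name cutadapt, STAR, HTSeq and DESeq2 and the builds mm10 and GRCh37, without roles. The annotation, strand setting and handling of reads with several matches are not given in the sources used here. The table held 20 further columns that match no sample, and these were not used.

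Gene IDs were given symbols, exon lengths and positions from GENCODE vM21 (GRCm38), and 42250 of 42687 IDs matched. Counts were filtered with filterByExpr, which left 18753 genes, scaled by TMM and tested with edgeR 4.0.16 in R 4.3.3, by quasi-likelihood F tests with Benjamini-Hochberg adjustment over all genes tested and a threshold of 0.05. All 17 libraries entered each fit. A model with 1 mean per group gave each peptide's genotype difference, each genotype's inhibitor difference and the interaction; an additive model gave genotype and inhibitor overall. CPM use the TMM-scaled library size, log2 levels have a prior count of 2, and intervals are 95%. The floor covers counting error only. The 95% intervals of log2 differences come from the quasi-likelihood fits and include the spread between libraries. The script was tested on simulated data.

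No pair of libraries held identical counts (0 of 136 pairs), and pairs of 1 group had a chi-square of 5.37 to 91.4 per degree of freedom, more than sampling noise, so no library was taken as a repeat of another and each was counted as 1 sample. Replicates were numbered in sample order, and the numbers pair nothing. Alternatives were DESeq2 1.42.0, its size factors, no filter, only the groups compared, marker levels or Xist as a covariate, and each library left out. A fit on libraries with Xist above 1000 CPM and the comparison of Gfap with the identity genes were added after seeing the data. The 10 genes and the gene lists were chosen with earlier results of these data known. The text names the 10 genes, genes of each list past the threshold or with the list's smallest p, and the 3 genes most like each of 4 genes; a few genes that this would name are not reported here.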

Additional observations from a re-analysis of the deposited data

Results flagged for a closer look

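A level far from the rest of its group was found in 3 of 30 groups of 5 libraries, where 1.5 are expected by chance, since the test marks about 1 in 20 groups. Aqp4 was at 129.3 CPM in replicate 4 of WT with control peptide, where the other 4 libraries were at 77.2 to 89.3 CPM. Hepacam was at 169.5 CPM in replicate 1 of WT with control peptide, the deepest library, where the others were at 59.3 to 80.6 CPM. S100b was at 12.8 CPM in replicate 2 of WT with inhibitor, where the others were at 7.48 to 8.35 CPM, and without this library the genotype difference of S100b passed the threshold.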

How the results depend on the processing

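Gfap over both peptides stayed between 1.09 and 1.40 in log2 difference over 8 alternatives and between 1.12 and 1.31 with each library left out, and lost its call with the microglia markers as a covariate alone. The number of genes called for genotype over both peptides, 110, was 182 with DESeq2, 68 with the identity genes as covariate, 11 with the microglia markers, and 21 in the libraries of high Xist, where Gfap had an adjusted p of 0.00359 in edgeR; of the 10 genes DESeq2 called 2 and the microglia model 0. With each library left out the counts were 70 to 125 genes, with 70 without APP/PS1 replicate 2 of control peptide, and 1 to 2 of the 10 genes, with 2 without WT replicate 2 of inhibitor. For the control peptide, 10 genes became 45 with DESeq2, 2 with the microglia markers, 16 with the endothelial markers and 23 with Xist as covariate, and 4 to 17 with a library left out (17 without WT replicate 4, 6 without WT replicate 3 or APP/PS1 replicate 1, 4 without APP/PS1 replicate 2); DESeq2 called 1 of the 10 genes. With inhibitor, 34 genes became 61 with DESeq2, 22 with the identity genes, 4 with the microglia markers, 54 with the endothelial markers and 14 with Xist, and 15 to 38 with a library left out (15 without WT replicate 5 or APP/PS1 replicate 2, 17 without APP/PS1 replicate 4, 19 without WT replicate 3, 21 without WT replicate 1). There the microglia model called 0 of the 10 genes, with Gfap at 1.17 and an adjusted p of 0.154 in edgeR, and left-out libraries gave 1 to 2, the second being S100b at 0.73 with an adjusted p of 0.0171 without WT replicate 2. All counts for the inhibitor and the interaction were 0 in each alternative.

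Directions over both peptides that turned were, with the identity genes as covariate, Vim at -0.0627, Serpina3n at -0.0284, Gja1 at -0.12, Gjb6 at -0.14, Mlc1 at -0.0295 and Hepacam at -0.0628. With the microglia markers they were Vim at -0.55, Serpina3n at -0.23, Aqp4 at -0.11, Gja1 at -0.58, Gjb6 at -0.60, Mlc1 at -0.38 and Hepacam at -0.34, and in the libraries of high Xist Gjb6 at -0.20 and Hepacam at -0.0879. Left-out libraries gave -0.026 to 0.19 for Gjb6 and -0.0291 to 0.26 for Hepacam. With inhibitor, Serpina3n was at -0.0895 with the microglia markers, and with control peptide -0.37 to 0.12 with a library left out. For inhibitor in WT, Gfap was at 0.0144 with the identity genes and -0.21 to 0.12 with a library left out. For inhibitor in APP/PS1, Serpina3n was at 0.0061 with the microglia markers, 0.0167 with Xist and -0.28 to 0.14 with a library left out. For inhibitor over both genotypes, Gfap was at -0.0444 to 0.15 with a library left out. The cause was not tested.

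The group of APP/PS1 with control peptide has 2 libraries, and leaving out 1 of them assumes that the other varies like the other groups. No paired analysis was possible because the labels carry no replicate numbers that the groups share. The lowest counts per library were those of S100b, at 58, and Serpina3n, at 61, so their levels carry the most counting error.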
